A study of Mus musculus with 155 samples.

Results

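Single cells of healthy mouse brain sorted as oligodendroglia (O, 29 cells) were compared with cells sorted as neuroblasts (NB, 37 cells). These 66 cells are all the cells of both populations among the 155 deposited. Membership follows the population name in the labels and uses no measured value. O cells were Tomato-positive cells of the strain Olig2-tdTomato TH39Gsat/Mmcd, in which regulatory DNA of the glial transcription factor Olig2 drives a red reporter. NB cells were Gad67-GFP-positive cells of CB6-Tg(Gad1-EGFP)G42Zjh/J mice, in which regulatory DNA of Gad1, the gene of the GABA-synthesizing enzyme Gad67, drives a green one. All were non-injected controls of 8 to 10 weeks, and the subventricular zone and corpus callosum were the labelled tissue of both. Strain and gate differ together between O and NB, so the difference between strains and that between cell types cannot be told apart. With 5 mice per condition, the labels tie no single cell to a mouse. Each population was therefore 1 sample, the spread given is that between cells, and no test was made.

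Oligodendrocytes wrap axons in myelin, a stack of membrane rich in lipid and in a small set of structural proteins. They draw heavily on iron, on secretory and lipid synthesis pathways, and on a rigid microtubule cytoskeleton in their processes. Neuroblasts of the subventricular zone are young migrating neurons. They travel to the olfactory bulb, where most become inhibitory interneurons, and they carry microtubule proteins, adhesion molecules and transcription factors of that lineage.

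The level of a gene is the mean over cells of log2(value + 1), given with the SD between cells, and a difference is the level in O minus the level in NB. A difference of at least 2 either way is the size named as higher or lower here. The deposited values were normalized to nearly one distribution (column totals 5155900 to 5161090), so a level compares populations for 1 gene and not genes with each other. A gene was scored as present where it was among the 500 highest genes of a cell, in the 29 O and 35 NB cells with that many genes detected, and shares have exact Clopper-Pearson 95% intervals, which cover counting error only. Genes detected per cell ran from 837 to 1755 (median 1187) in O and from 353 to 1592 (median 1114) in NB. Cells with neighbouring numbers in their titles resembled each other. Runs of neighbouring numbers were therefore set side by side. They are called O-A, O-B and O-C (9 cells each) in O and NB-A (12 cells), NB-B (10) and NB-C (9) in NB, with the early-numbered cells 1 to 21 (2 O and 6 NB cells) apart. The labels do not call these runs batches, and some of their bounds fall between consecutive numbers, where the labels mark no break. No 2 cells had identical columns.

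Of 11 measured oligodendrocyte markers 9 were higher in O by at least 2 and none lower, and of 10 neuroblast markers 6 were lower in O and none higher. The other 6, Mal, Mobp, Dlx1, Dlx2, Sp9 and Tubb3, stayed within 2. Of the reporter transcripts, the green one followed the labels and the red one did not. Trf (GRCm38 chr9:103204001-103230444, as are the locations of genes given after it) had a lowest, median and highest level of 5.86, 14.61 and 20.19 across O cells, against 0.00, 0.00 and 4.86 across NB cells. It encodes transferrin, the iron carrier that oligodendrocytes make in quantity. Every O cell lay above every NB cell for Trf.

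Cnp (chr11:100574904-100591729), the cyclic nucleotide phosphodiesterase of non-compact myelin, ran at 3.39, 12.38 and 16.42 in O cells and at 0.00, 0.00 and 3.85 in NB cells. The populations overlapped for Cnp because the lowest O cell lay under the highest NB cell. Cnp was among the 500 highest genes in 28 of 29 O cells (interval 82.2% to 99.9%) and in 1 of 35 NB cells (interval 0.0723% to 14.9%).

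Dcx (chrX:143855842-143933311), the microtubule-binding protein of migrating neurons, ran at 0.00, 1.09 and 4.54 in O cells and at 0.00, 4.35 and 18.99 in NB cells. Sp8 (chr12:118846329-118852576), a transcription factor of olfactory bulb interneurons, ran at 0.00, 0.53 and 4.12 in O cells and at 0.00, 8.88 and 18.99 in NB cells. Both were high in part of the NB cells and at or near 0 in others, so that their ranges overlapped those of O. Presence of Dcx was 5 of 29 O cells and 20 of 35 NB cells, and that of Sp8 was 2 of 29 O cells and 23 of 35 NB cells.

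The green reporter EGFP had a level of 0.43 ± 0.96 in O and 5.19 ± 3.19 in NB, and Gad1 (chr2:70553072-70602014) had 0.34 ± 0.94 in O and 3.59 ± 3.26 in NB. The red reporter TdTomato was low in both, at 0.35 ± 1.02 in O and 0.18 ± 0.83 in NB, and was present in 1 of 29 O cells and 1 of 35 NB cells. The red reporter's own transcript did not separate the populations. Olig1, the partner of Olig2, was present in 1 of 29 O cells and 0 of 35 NB cells, and Olig2 was not analysed here.

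**Figure D1:**
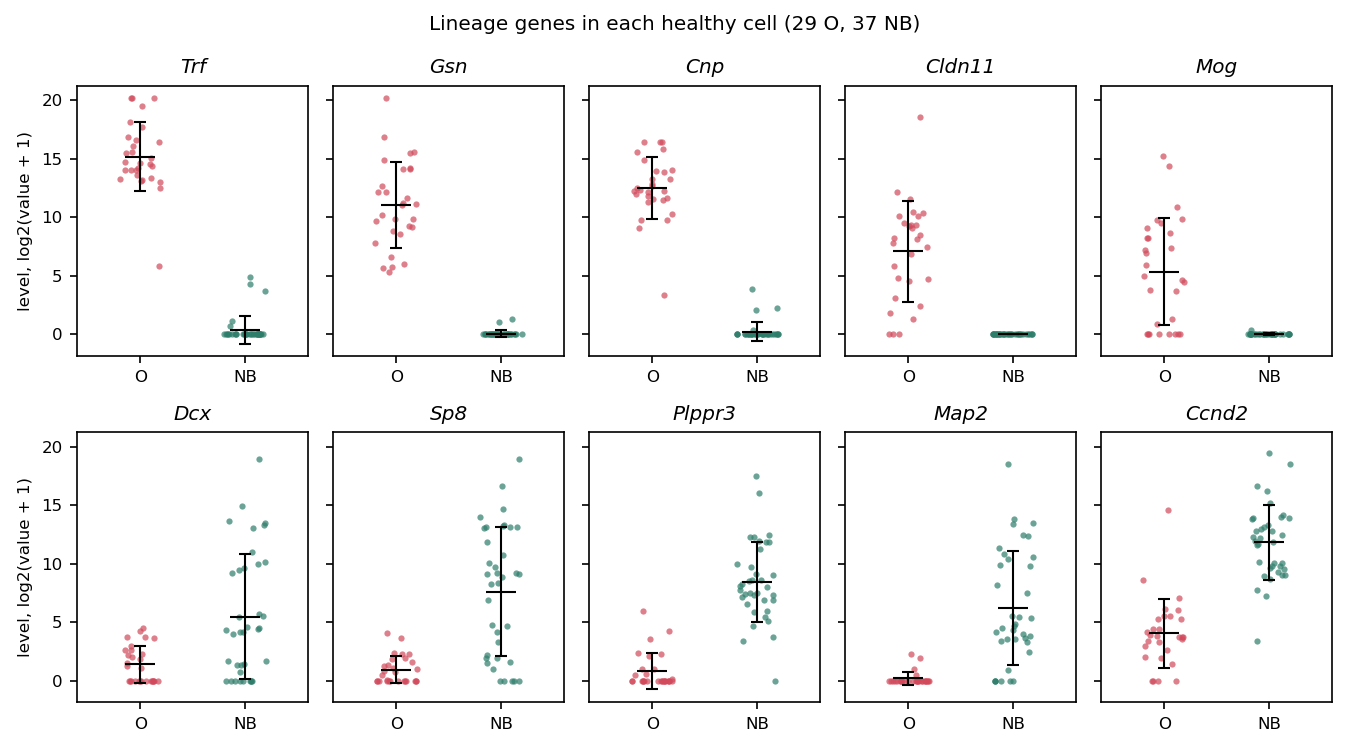
Level, log2(value + 1), of 10 lineage genes in each O cell (left, 29 cells) and NB cell (right, 37 cells), with the mean and the SD between cells. Trf and Gsn separate all O cells from all NB cells, whereas Dcx, Sp8 and Map2 are spread from 0 upward across NB cells.

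Trf and Cnp were taken as a set, and Dcx, Sp8 and Stmn2 as another. All of them differed by at least 2 between O and NB, and the markers that stayed within 2 were left out. The opposite direction of the shares was thus in part fixed by that choice. Trf and Cnp were both present in 28 of 29 O cells (interval 82.2% to 99.9%) and in 0 of 35 NB cells, where the exact interval reaches 10.0% and 3 counts of the total would be 8.57%. Dcx, Sp8 and Stmn2 were all present in 0 of 29 O cells, where the exact interval reaches 11.9% and 3 counts would be 10.3%, and in 12 of 35 NB cells. At least 1 of Dcx, Sp8 and Stmn2 was present in 7 of 29 O cells (interval 10.3% to 43.5%) and in 28 of 35 NB cells (interval 63.1% to 91.6%). At least 1 gene of each set was present in 7 of 29 O cells and in 3 of 35 NB cells. Another 7 NB cells had none of either set. Doublets were not called, and the part of 2-cell wells in these shares was not tested.

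Across the deposited table, 422 of 3422 genes (12.3%) were higher in O by at least 2, and 462 (13.5%) were lower. The median difference over all genes was 0.09. Non-overlap was rarer, with 4 genes (0.117%) for which every O cell lay above every NB cell, and none for the opposite. Trf, Gsn and Psmd6 were among them. In 336 genes (9.82%) all run means of O lay above all run means of NB, and in 365 (10.7%) they lay below. With a pseudocount of 10 in place of 1, 254 genes were higher in O and 242 lower by at least 2. Without the early-numbered run, which holds 2 O cells, all run means lay above for 752 genes and below for 609.

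The 12 genes that led on the O side, chosen by the size of the difference among genes whose presence differed by at least 60 points, included Trf, Cnp, Gsn, Psmd6, Ptgds, Abca2, Enpp2, Ttyh2, Klhl7, Dapk1 and Sept4. Trf led with 15.19 ± 2.92 in O and 0.40 ± 1.20 in NB, a difference of 14.79. The NB side was led by Tgoln1, Rtn3, Plppr3, Gapdh, Eif4g2, Map4k3, Rars2, Clic4, Pcif1, Sf3b1, Fam192a and Wbp2. Tgoln1, a protein that cycles through the trans-Golgi network, had 0.96 ± 1.47 in O and 9.11 ± 4.70 in NB, a difference of -8.14. These 11 leading O genes were at or near 0 in NB, at levels of at most 0.40 ± 1.20 (Trf). The leading NB genes had levels in O between 0.09 ± 0.46 (Rars2) and 2.63 ± 3.18 (Eif4g2).

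**Figure D2:**
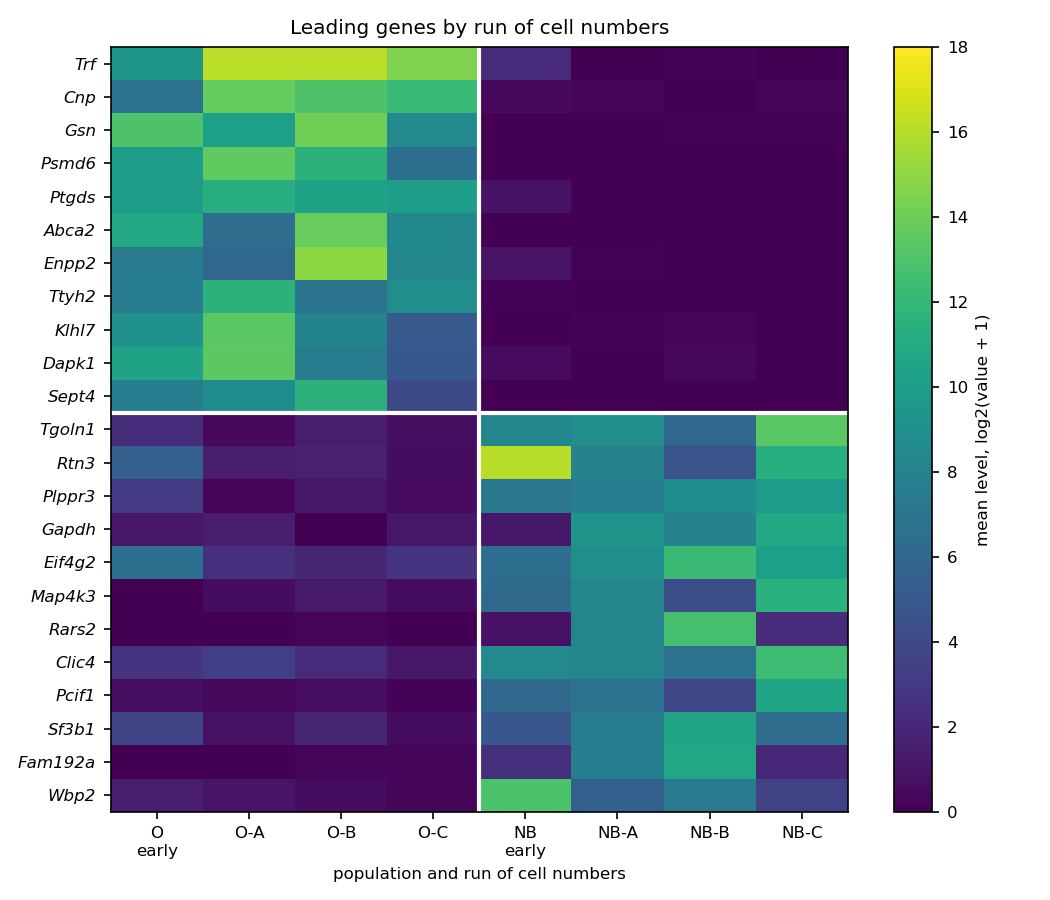
Mean level of leading genes (rows; 11 higher in O above the white line, 12 lower in O below it) in each run of cell numbers (columns, O left of the white line, NB right of it). Trf is high in every O run, whereas Dapk1 and Klhl7 are highest in O-A cells and Rars2 and Fam192a in NB-B cells.

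Myelin protein genes stood on the O side. Of 23 measured members, 14 (60.9%) were higher in O by at least 2 and 0 were lower, beside 12.3% and 13.5% of all genes. The median difference was 2.94 over all 23, beside 0.09 over all genes. Averaged over the group, each O cell lay above each NB cell, with lowest, median and highest cell means of 2.71, 4.10 and 5.77 in O and 0.00, 0.40 and 1.07 in NB.

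Single myelin genes were uneven among O cells. Cldn11, the claudin that seals the lamellae, had 7.09 ± 4.29 in O and 0.00 ± 0.00 in NB and was present in 22 of 29 O cells. Mog, which lies on the outer face of the sheath, had 5.35 ± 4.60 in O and 0.01 ± 0.07 in NB and was present in 19 of 29 O cells. Mag, the adhesion protein facing the axon, had 4.18 ± 4.52 in O and 0.09 ± 0.57 in NB, and was present in 11 of 29 O cells. Opalin, a membrane protein of oligodendrocytes, was high mainly in O-A cells, with a run mean of 9.83, against 2.72 and 0.23 in O-B and O-C. Pllp, the tetraspan protein plasmolipin, had the reverse distribution, with 1.62 in O-A cells, 3.50 in O-B and 9.18 in O-C.

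Mbp, the basic protein that compacts myelin, was modest in these cells, at 3.00 ± 3.02 in O and 0.06 ± 0.38 in NB, and was present in 7 of 29 O cells. Mobp (1.58 ± 2.29 in O and 0.04 ± 0.23 in NB) and Mal (1.02 ± 1.69 in O and 0.00 ± 0.00 in NB) stayed under a difference of 2. None of the 3 was raised in NB. Sept4, a septin of the filaments that line myelin, had 8.06 ± 4.31 in O and 0.00 ± 0.00 in NB. Nfasc, an adhesion protein of the paranodal junction, had 3.38 ± 3.49 in O and 0.59 ± 1.04 in NB.

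Secreted, carrier and enzyme genes of mature oligodendrocytes stood on the same side as the myelin genes. Of 22 measured, 16 (72.7%) were higher in O and 2 (9.09%) lower, beside 12.3% and 13.5% of all genes, with a median difference of 5.55. Ptgds, the prostaglandin D synthase that glia secrete, ran at 0.00, 10.89 and 18.14 in O cells and at 0.00, 0.00 and 4.30 in NB cells. Gsn (chr2:35256380-35307892), the actin-severing protein gelsolin, ran at 5.29, 11.06 and 20.19 in O cells and at 0.00, 0.00 and 1.31 in NB cells. Both had a median of 0 in NB cells, and for Gsn the populations did not overlap.

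Abca2, a lipid transporter of lysosomes, had 9.65 ± 5.63 in O and 0.01 ± 0.08 in NB, and Enpp2, the secreted enzyme autotaxin, had 9.60 ± 5.98 in O and 0.22 ± 0.78 in NB. Enpp2 was uneven among O cells and averaged 6.11 in O-A cells, 14.91 in O-B and 8.24 in O-C. Tubb4a, the tubulin isotype of myelinating cells, had 9.56 ± 3.87 in O and 3.97 ± 5.49 in NB. Stmn4 (difference -4.51), a microtubule-destabilizing stathmin also made by neurons, and Gstm7 (difference -2.08), a glutathione transferase, were the 2 lower members.

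Iron handling was raised beyond its carrier. Of 7 genes measured, 5 (71.4%) were higher in O and 0 lower, beside 12.3% and 13.5% of all genes, with a median difference of 4.01. Beside Trf, they were Slc48a1, a heme transporter (5.80 ± 4.73 in O and 0.25 ± 1.52 in NB), Hmox2, which breaks heme down (4.76 ± 4.57 in O and 0.39 ± 2.18 in NB), Pcbp1, an iron chaperone (4.88 ± 3.85 in O and 0.87 ± 1.91 in NB), and Fth1, the ferritin heavy chain (5.07 ± 3.28 in O and 1.23 ± 3.46 in NB). Ftl1, the light chain, had 4.50 ± 4.28 in O and 3.93 ± 3.50 in NB, and Slc11a2, a metal importer, had 0.37 ± 0.86 in O and 0.16 ± 0.62 in NB. Ftl1 was high in O-A cells alone among O runs (9.04, against 3.33 in O-B and 1.61 in O-C). All run means of O lay above those of NB for 3 of the 7 iron genes. Slc48a1 is counted also among the secreted, carrier and enzyme genes and among the solute carriers, so these lists are not separate.

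Lipid synthesis genes went both ways. Of 15 genes, 3 (20%) were higher in O and 2 (13.3%) lower, beside 12.3% and 13.5% of all genes. A level under 1 was found for 11 of the 15 in O and for 12 in NB. The median difference was 0.11 over all measured members. It was -0.47 over the 7 with a mean of at least 5 in O or NB after scaling each cell to a total of 1000000. Where that minimum turns the sign of a list's median, both values are given. Ugt8a, which makes the myelin lipid galactosylceramide, had 4.27 ± 4.23 in O and 0.01 ± 0.07 in NB. Acaca, the carboxylase that starts fatty acid synthesis, had 3.87 ± 3.91 in O and 1.18 ± 2.74 in NB, and Insig1, which restrains cholesterol synthesis, had 2.11 ± 2.45 in O and 0.04 ± 0.15 in NB. By contrast, Dhcr7, which acts at the end of cholesterol synthesis, was lower, with 2.36 ± 2.42 in O and 8.35 ± 5.91 in NB. In NB it was highest in NB-A and NB-B, at 11.96 and 11.23, against 6.54 in the early-numbered cells and 1.55 in NB-C.

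Solute carriers leaned to O, with 8 of 42 higher and 1 lower, where the shares over all genes were 12.3% and 13.5%. The median difference was 0.27, or 2.65 over the 13 members with a mean of at least 5. The mean over all 42 solute carriers lay above every NB cell in 28 of 29 O cells. Slc12a9, of the cation-chloride cotransporter family, had 6.96 ± 5.62 in O and 0.23 ± 0.99 in NB. Slc6a9, a glycine transporter, had 5.89 ± 5.24 in O and 0.43 ± 1.91 in NB, and Slc4a2, an anion exchanger, had 5.87 ± 5.50 in O and 0.03 ± 0.16 in NB. The single lower one, Slc29a4, a monoamine transporter of the plasma membrane, had 0.07 ± 0.37 in O and 6.39 ± 6.19 in NB, and averaged 13.54 in early-numbered NB cells and 2.62 in NB-B.

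Ion channels and receptors differed about as often as all genes, with 3 of 26 (11.5%) higher in O, 3 (11.5%) lower, beside 12.3% and 13.5% of all genes, and a median difference of 0.05 over all measured members and -0.44 over the 10 with a mean of at least 5. Gabrb1, a GABA-A receptor subunit, was even across O cells, at 1.33, 4.32 and 6.66 in O and 0.00, 0.01 and 5.07 in NB. Gabra2, another, had 3.40 ± 3.28 in O and 1.18 ± 1.81 in NB, and Kcna1, a potassium channel, had 4.12 ± 4.86 in O and 0.00 ± 0.00 in NB. Gria2, the AMPA receptor subunit that limits calcium entry, had 0.88 ± 0.96 in O and 6.24 ± 5.14 in NB. Itpr1, the calcium channel of the endoplasmic reticulum, had 5.02 ± 2.13 in O and 8.79 ± 4.54 in NB, and Lrrc8a, a volume-regulated anion channel, had 3.35 ± 2.22 in O and 6.30 ± 4.48 in NB.

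Genes of earlier stages of the oligodendrocyte lineage differed little. Of 10 progenitor genes 0 were higher in O by at least 2 and 1 was lower, beside 12.3% and 13.5% of all genes, although 9 lay above NB by some amount (median difference 0.67). Cell means over them were 0.48, 1.24 and 2.73 in O and 0.00, 0.77 and 2.13 in NB (lowest, median and highest). Of 5 genes of newly formed cells none passed 2 either way, and 4 lay above NB by some amount (median 0.42). Pdgfra, the growth factor receptor of progenitors, had 1.58 ± 1.96 in O and 0.67 ± 1.66 in NB. Cspg4, the NG2 proteoglycan, had 1.62 ± 2.01 in O and 0.81 ± 1.72 in NB. Ncan, a matrix proteoglycan, was the lower one, with 3.54 ± 2.31 in O and 5.58 ± 3.50 in NB. Bcas1, a marker of newly myelinating cells, was present in 3 of 29 O cells and 0 of 35 NB cells.

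Transcription factors of glial fate did not separate the populations, as none of 10 passed 2. Sox10, the factor that drives myelin genes, had 1.94 ± 4.05 in O and 0.14 ± 0.62 in NB and was present in 4 of 29 O cells. Nfia, a gliogenic factor that neuroblasts share, had 5.13 ± 1.70 in O and 6.42 ± 4.07 in NB. Tcf7l2, a factor of differentiating oligodendrocytes, had 4.62 ± 1.99 in O and 4.20 ± 2.52 in NB.

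On the NB side, migration, cytoskeleton and surface genes had the highest share of lower members among the lists of at least 7 genes. Of 35 measured, 19 (54.3%) were lower in O and 0 higher, beside 13.5% and 12.3% of all genes, with a median difference of -2.39. Cell means over the group were 0.70, 1.35 and 2.64 in O and 2.38, 3.94 and 5.26 in NB (lowest, median and highest), and 27 of 29 O cells lay below every NB cell. Plppr3 (chr10:79860475-79874634), a membrane protein of growing axons, ran at 0.00, 0.00 and 5.98 in O cells and at 0.00, 7.99 and 17.50 in NB cells. It was present in 2 of 29 O cells and 33 of 35 NB cells, more NB cells than Dcx.

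Microtubule proteins were prominent in this group. Map2, of neuronal cell bodies and dendrites, ran at 0.00, 0.00 and 2.25 in O cells and at 0.00, 4.69 and 18.54 in NB cells, and Map1b, of growing axons, had 2.15 ± 1.75 in O and 6.59 ± 3.71 in NB. Tuba1a, the alpha tubulin of young neurons, was found in both populations, at 0.00, 6.12 and 18.14 in O cells and 4.61, 11.43 and 18.99 in NB cells. It was present in 20 of 29 O cells and 35 of 35 NB cells. Tubb3, often used to mark young neurons, did not separate the populations, with 1.50 ± 1.92 in O and 1.56 ± 2.32 in NB.

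Single surface and guidance genes were also lower in O, though not the group. Across all 31 axon guidance and adhesion genes, 3 were higher in O (9.68%), namely Efnb3, Nfasc and Nrp2, and 2 lower (6.45%), both shares under those of all genes, and 19 lay above NB by some amount. Cd24a, a surface protein of neuroblasts, was listed at 0 in every O cell and averaged 4.37 ± 4.36 in NB. Robo1, a Slit receptor, had 0.63 ± 1.00 in O and 3.02 ± 3.61 in NB, Lrp8, a reelin receptor, had 1.14 ± 1.67 in O and 6.34 ± 6.21 in NB, and Cdh2, N-cadherin, had 0.12 ± 0.42 in O and 4.68 ± 4.32 in NB. Lrp8 was concentrated in NB-C cells (14.19), against 3.33 in NB-A and 4.51 in NB-B.

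The whole family of tubulin, actin and motor genes held members on both sides and more of them lower in O. Of 58 measured, 9 (15.5%) were higher in O and 16 (27.6%) lower, beside 12.3% and 13.5% of all genes, with a median difference of -0.40. Actr1a, a dynactin subunit, had 5.09 ± 4.25 in O and 0.00 ± 0.00 in NB. Tpm1, a tropomyosin, had 0.32 ± 0.88 in O and 5.21 ± 5.70 in NB, highest in early-numbered NB cells (12.08). Map2, Tuba1a, Map1b, Stmn2 and other members stand in both this list and the migration list, and Gsn and Tubb4a stand also in the oligodendrocyte list.

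Interneuron transcription factors were mixed. Of 16, 3 (18.75%) were lower in O and 1 (6.25%) was higher, beside 13.5% and 12.3% of all genes, with a median difference of -0.17. Beside Sp8, the lower ones were Bcl11b (0.83 ± 1.44 in O and 6.38 ± 4.66 in NB) and Sox11 (1.38 ± 1.99 in O and 4.83 ± 4.74 in NB). The higher one was Nr2f1, a nuclear receptor of interneuron and other cell fates, with 4.56 ± 4.14 in O and 0.00 ± 0.00 in NB, present in 17 of 29 O cells and 0 of 35 NB cells. Dlx1, Dlx2, Dlx6, Pax6 and Sp9 stayed within 2, with Dlx6 at 1.53 ± 1.64 in O and 2.87 ± 3.74 in NB.

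Of the GABA and neuronal RNA-binding group, 2 of 13 (15.4%) were higher in O and 2 (15.4%) lower, near the 12.3% and 13.5% of all genes. Gad2, the second GABA-synthesizing enzyme, had 1.13 ± 2.32 in O and 0.35 ± 0.85 in NB. The higher members were Gabra2 and Snap25, a fusion protein of synaptic vesicles, which had 6.20 ± 5.22 in O and 0.23 ± 0.71 in NB. Snap25 is a textbook neuronal gene, and it was present in 18 of 29 O cells and 0 of 35 NB cells.

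**Figure D3:**
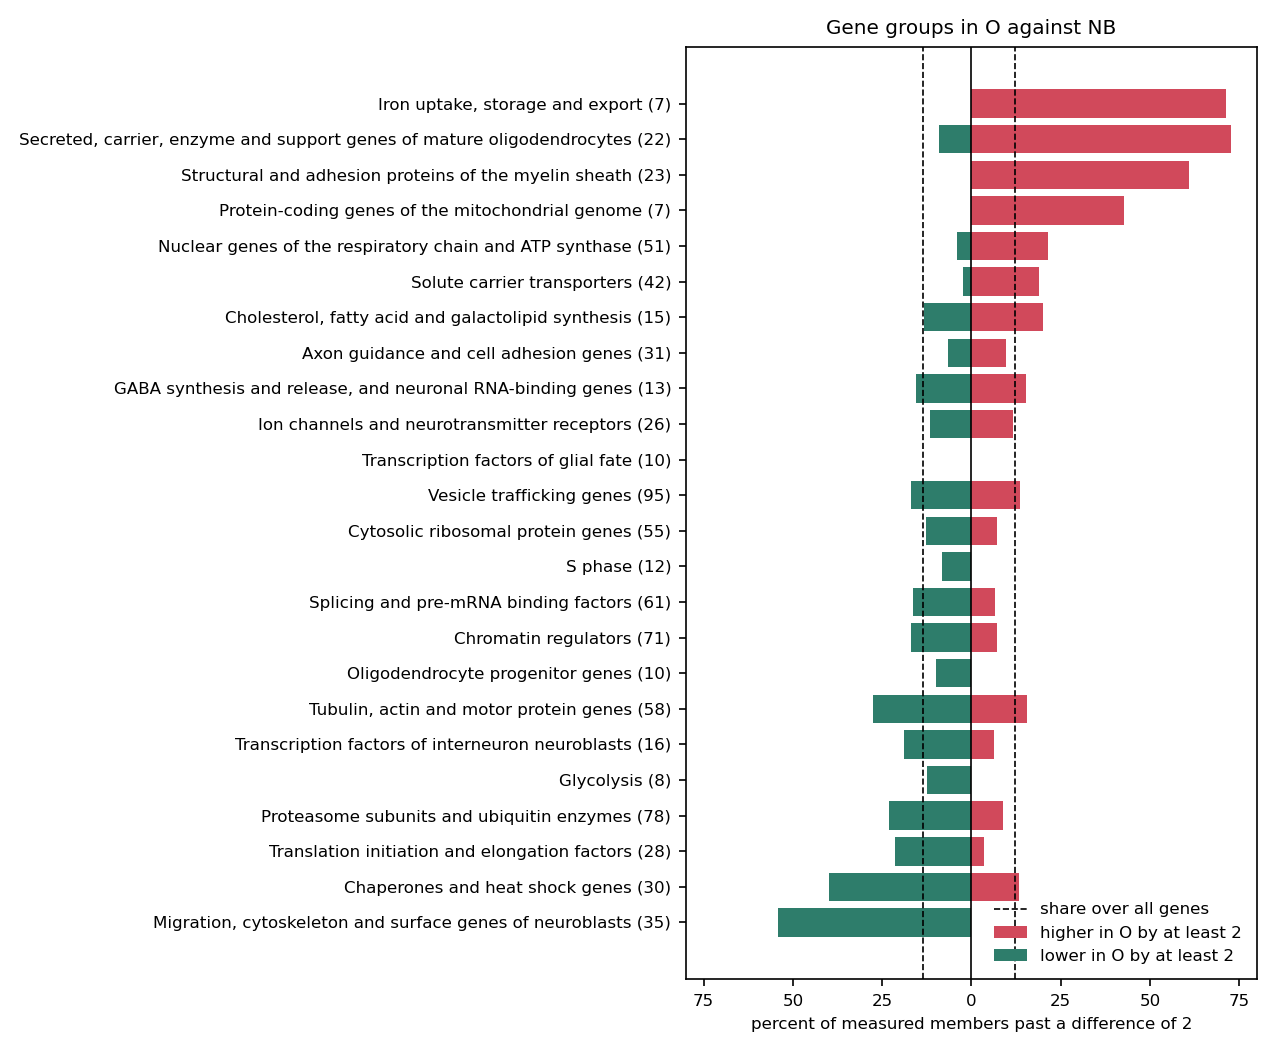
Percent of measured members of each gene list (number measured in brackets) that were higher in O by at least 2 (red, to the right) or lower (green, to the left), with dashed lines at the 12.3% and 13.5% found over all 3422 genes. Myelin, oligodendrocyte support and iron lists extend to the right and the migration and chaperone lists to the left.

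Promoters of the leading markers are shown to give their sequence context. Each window covers 250 bases before to 50 bases after the start site, 5′ to 3′ on the gene's strand, from RefSeq on GRCm38.p6. Capitals mark ACAAAG, a SOX core, in Cnp (chr11:100574689-100574988, plus strand), and TAATTA, a homeodomain core, in Dcx (chrX:143933170-143933469, minus strand, 1 of 2 windows listed for it). Both strands were searched.
Cnp: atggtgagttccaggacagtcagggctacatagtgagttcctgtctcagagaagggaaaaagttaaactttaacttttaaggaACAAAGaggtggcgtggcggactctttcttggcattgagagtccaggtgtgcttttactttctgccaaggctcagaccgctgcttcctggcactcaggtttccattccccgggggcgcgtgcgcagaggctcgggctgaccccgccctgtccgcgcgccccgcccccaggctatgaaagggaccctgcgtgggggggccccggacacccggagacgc
Dcx: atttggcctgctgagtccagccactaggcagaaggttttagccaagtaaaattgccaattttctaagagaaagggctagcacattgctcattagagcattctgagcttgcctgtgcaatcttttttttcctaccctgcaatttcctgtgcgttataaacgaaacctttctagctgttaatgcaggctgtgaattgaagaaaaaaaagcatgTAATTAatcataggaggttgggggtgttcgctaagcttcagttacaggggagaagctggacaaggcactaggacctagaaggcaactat
ACAAAG was found in 18.7% of all 32851 promoters and in 14.6% of the 3238 promoters of genes in the deposited table. Its share was 15.5% among the 432 promoters of genes higher in O and 16.3% among the 447 of genes lower in O. TAATTA was found in 5.29% of all promoters and in 2.84% of those of the deposited table, with 2.31% for genes higher in O and 2.46% for genes lower in O. A match is a description of the letters and not a binding site.

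Chaperones were lower in O more often than all genes. Of 30 measured, 4 were higher in O (13.3%) and 12 lower (40%), beside 12.3% and 13.5% of all genes. The median difference was -0.66, or -2.27 over the 23 members with a mean of at least 5. Of the 4 higher ones, 3 work in the endoplasmic reticulum. Hspa5, the reticulum's main Hsp70, had 4.39 ± 5.21 in O and 0.07 ± 0.30 in NB. Hsp90b1, its Hsp90, had 4.71 ± 5.34 in O and 0.04 ± 0.18 in NB, and Dnajb11, a co-chaperone of Hspa5, had 4.14 ± 3.60 in O and 0.01 ± 0.07 in NB.

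The fourth was Cryab, a small heat shock protein of the cytosol that oligodendrocytes are known to make, with 7.75 ± 4.89 in O and 0.01 ± 0.07 in NB. The lower ones included Ahsa1, an Hsp90 activator (0.12 ± 0.41 in O and 5.11 ± 6.19 in NB), Tcp1, a subunit of the chaperonin that folds tubulin and actin (0.77 ± 1.40 in O and 4.92 ± 4.83 in NB), and Hsp90aa1 (0.44 ± 1.09 in O and 3.91 ± 4.60 in NB). Ahsa1 was concentrated in NB-C cells (13.41), against 1.40 to 3.02 in the other NB runs.

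Within O, Hspa5 and Hsp90b1 were high in the same run of cells. Hspa5 averaged 10.61 in O-A cells, 1.79 in O-B and 1.26 in O-C, and Hsp90b1 averaged 9.92, 2.32 and 2.64 in the same order. Tmed10 and Cope, which carry cargo between the reticulum and the Golgi, did so too, with 12.15 and 10.57 in O-A cells and at most 3.35 and 4.62 in the later runs. Dnajb11 was more even, at 4.33, 5.79 and 2.79. Across the 29 O cells the correlation of Hspa5 was 0.64 with Hsp90b1, 0.82 with Tmed10 and -0.08 with Dnajb11, a description in cells that share number runs. Manf and Ddit3, other genes of reticulum stress chosen after their values were seen, were present in 12 of 29 O cells each and in 0 of 35 NB cells each. They did not share the O-A pattern, as Manf averaged 1.23 in O-A cells, 5.57 in O-B and 1.86 in O-C, and Ddit3 1.05, 3.68 and 2.58 in the same order. Canx, Pdia3 and Xbp1, which fold or regulate in the same compartment, stayed within 2, with differences of -0.54, -0.37 and -0.95.

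The promoters of these 3 chaperones are shown because 2 of the genes were high in the same run of O cells and 1 was more even. Capitals mark 1 form of the endoplasmic reticulum stress response element, CCAAT and CCACG with 9 bases of any kind between them, on either strand. No other spacing was searched. The windows are chr2:34771840-34772139 (plus strand), chr10:86705395-86705694 (minus strand) and chr16:22857595-22857894 (plus strand), from the same RefSeq table.
Hspa5: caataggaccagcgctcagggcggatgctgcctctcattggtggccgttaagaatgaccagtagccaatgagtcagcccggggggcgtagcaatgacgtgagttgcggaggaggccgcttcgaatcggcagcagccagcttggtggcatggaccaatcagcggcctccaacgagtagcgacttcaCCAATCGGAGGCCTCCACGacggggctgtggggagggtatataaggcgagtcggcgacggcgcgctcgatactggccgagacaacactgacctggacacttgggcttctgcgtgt
Hsp90b1: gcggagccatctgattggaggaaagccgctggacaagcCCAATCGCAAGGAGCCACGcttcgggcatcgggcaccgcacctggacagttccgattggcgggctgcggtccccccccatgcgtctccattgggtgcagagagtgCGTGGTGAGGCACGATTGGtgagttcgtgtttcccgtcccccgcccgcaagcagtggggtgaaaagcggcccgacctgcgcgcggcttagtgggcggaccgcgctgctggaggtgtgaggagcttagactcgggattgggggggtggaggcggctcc
Dnajb11: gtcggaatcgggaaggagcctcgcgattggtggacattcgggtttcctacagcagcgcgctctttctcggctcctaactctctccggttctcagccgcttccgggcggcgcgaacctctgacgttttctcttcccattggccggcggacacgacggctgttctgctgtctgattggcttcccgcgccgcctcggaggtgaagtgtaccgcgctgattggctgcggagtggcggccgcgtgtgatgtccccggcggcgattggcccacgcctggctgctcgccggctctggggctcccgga
Hspa5 holds 1 match and Hsp90b1 holds 2, and the Dnajb11 window holds 0 at this spacing of 9 bases. It does hold attggcccacg, where ATTGG, which is CCAAT on the other strand, lies 1 base before CCACG. The part of either spacing in the levels was not tested. The form with 9 bases was found in 39 of all 32851 promoters (0.119%) and in 7 of the 3238 promoters of genes in the deposited table (0.216%). It was in 2 of the 432 promoters of genes higher in O, which are those of Hspa5 and Hsp90b1, and in 0 of the 447 promoters of genes lower in O.

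Splicing, translation and ribosome genes lay below 0 or near it. Of 61 splicing genes 4 were higher in O and 10 lower (median -0.08, or -0.98 over the 33 members with a mean of at least 5). Of 55 ribosomal protein genes 4 were higher and 7 lower (median -0.20, or -1.34 over the 29 members with that mean). Both shares of lower genes (16.4% and 12.7%) were close to the 13.5% of all genes. The shares of higher genes (6.56% and 7.27%) lay under the 12.3% of all genes. Sf3b1, a core subunit of the branch-point complex, had 1.34 ± 1.39 in O and 7.63 ± 4.25 in NB, and Ddx5, an RNA helicase, had 2.20 ± 1.46 in O and 6.73 ± 3.42 in NB. Snrpb, a core protein of spliceosomal particles, went the other way with 6.03 ± 3.80 in O and 0.23 ± 0.81 in NB.

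Of 28 translation factors 1 (3.57%) was higher in O and 6 (21.4%) lower, beside 12.3% and 13.5% of all genes. Their median difference was 0.06, or -1.27 over the 18 members with a mean of at least 5. Eif4g2, which starts translation independently of the cap, had 2.63 ± 3.18 in O and 9.74 ± 4.82 in NB, and Eif1, which selects the start codon, had 7.54 ± 4.95 in O and 11.44 ± 3.62 in NB. Eef1e1, of the multisynthetase complex, was the higher one, with 4.24 ± 5.44 in O and 0.00 ± 0.00 in NB and most of it in O-A cells (10.24). Among ribosomal proteins Rpl37a had 4.19 ± 4.56 in O and 0.23 ± 0.86 in NB, and Rps25 had 0.51 ± 1.06 in O and 3.93 ± 3.23 in NB. Ribosomal proteins have many near-identical pseudogene copies, so their estimated values are uncertain.

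Chromatin regulators had 5 of 71 higher in O (7.04%) and 12 lower (16.9%) by at least 2, beside 12.3% and 13.5% of all genes. By any amount 37 were higher and 34 lower, with a median of 0.03 over all measured members and -0.55 over the 48 with a mean of at least 5. Hmgn1, a nucleosome-binding protein, had 0.86 ± 1.29 in O and 6.83 ± 3.86 in NB. Smarce1, a subunit of the SWI/SNF remodelling complex, had 2.07 ± 1.92 in O and 7.32 ± 5.24 in NB, and Brd2, a reader of acetylated histones, had 0.60 ± 1.23 in O and 6.04 ± 5.72 in NB. Hdac11, a deacetylase known in oligodendrocytes, was higher, with 4.58 ± 5.71 in O and 0.16 ± 0.74 in NB, and averaged 9.81 in O-C cells and 1.91 in O-A.

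Protein degradation held the single gene outside the lineage markers that separated all cells. Psmd6 (chr14:14112174-14120984), a subunit of the proteasome's regulatory particle, ran at 4.24, 10.52 and 18.14 in O cells and at 0.00, 0.00 and 0.01 in NB cells. It did not stand for the list of proteasome and ubiquitin genes. Of 78 measured, 7 (8.97%) were higher in O and 18 (23.1%) lower, beside 12.3% and 13.5% of all genes. The median was -0.02, or -0.70 over the 39 members with a mean of at least 5. Psmd2 (difference 3.68), Psma1 (2.78) and Psmc2 (2.41) were also higher in O, while Psmd12 (-3.65), Psmd1 (-3.49) and Psma3 (-3.07) were lower. Ubb, a polyubiquitin gene, had 1.20 ± 1.83 in O and 6.24 ± 5.61 in NB.

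Vesicle traffic had 13 of 95 genes higher in O and 16 lower (median 0.08, or -0.38 over the 54 members with a mean of at least 5), shares near those of all genes. Coat subunits divided, as Cope was higher in O (5.24 ± 5.61 in O and 0.00 ± 0.00 in NB) and Copb1 lower (0.85 ± 1.40 in O and 6.78 ± 4.17 in NB). Snap23, the fusion protein of non-neuronal exocytosis, had 6.78 ± 5.83 in O and 0.13 ± 0.38 in NB.

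Respiratory genes were more often higher than lower in O by at least 2, though not by runs. Of 51 nuclear genes of the respiratory chain and ATP synthase, 11 (21.6%) were higher and 2 (3.92%) lower (median 0.33). The shares over all genes were 12.3% and 13.5%. All run means of O lay above those of NB for 5 of the 51 and below them for 5. Over the 31 members with a mean of at least 5 the median was 0.60. It was 0.19 with runs weighted equally and 0 with the median over cells. Of 7 mitochondrial genes 3 (42.9%) were higher and 0 lower. Ndufa3, an accessory subunit of the first complex, ran at 0.00, 6.64 and 17.16 in O cells and at 0.00, 0.00 and 12.03 in NB cells, and Ndufs4, another, had 7.42 ± 5.08 in O and 0.42 ± 2.12 in NB. mt-Co1, a catalytic subunit of cytochrome oxidase, had 8.86 ± 4.27 in O and 1.93 ± 2.45 in NB, but mt-Co3 of the same complex had 0.57 ± 1.25 in O and 0.44 ± 1.14 in NB. Atp5g1, an ATP synthase ring subunit, was lower, with 1.62 ± 2.20 in O and 5.43 ± 5.05 in NB. In glycolysis only Gapdh passed 2 among 8 genes, and its value is uncertain because the gene has many near-identical pseudogenes. It had 0.88 ± 1.89 in O and 8.01 ± 5.71 in NB, with an NB run mean of 1.17 in the early-numbered cells and 10.87 in NB-C.

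Cell cycle and response genes gave few differences. Ccnd2, a cyclin of dividing precursors and young neurons, ran at 0.00, 3.78 and 14.61 in O cells and at 3.41, 11.97 and 19.50 in NB cells and was present in 17 of 29 O cells and 34 of 35 NB cells. Of 12 S phase genes, Rrm2, which makes deoxynucleotides, was lower (0.42 ± 0.96 in O and 4.44 ± 4.79 in NB) and none was higher. None of 3 G2 and M phase genes passed 2, with Top2a at 0.24 ± 0.63 in O and 0.29 ± 0.68 in NB. Of 4 immediate early genes, Zfp36, which promotes mRNA decay, was higher, at 4.59 ± 5.94 in O and 0.06 ± 0.37 in NB, and averaged 9.81 in O-C and 0.23 in O-A.

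Markers of other cell types were few in the table. Astrocyte genes (3 measured) stayed within 2, with lowest, median and highest cell means of 0.00, 1.01 and 6.15 in O and 0.00, 1.04 and 3.83 in NB. Of them, Apoe was present in 3 of 29 O cells and 1 of 35 NB cells. Itgam, a microglial integrin and the only microglial marker measured, was present in 0 of 29 O cells and 3 of 35 NB cells. Pecam1, the only endothelial marker measured, was at 4.95, 10.47 and 13.59 in O cells and 0.00, 5.52 and 14.26 in NB cells, and was present in 29 of 29 O cells and 32 of 35 NB cells. Of 6 stem and transit amplifying markers, Ccnd2 was lower in O and Prom1, a membrane protein of stem cells known also from other glia, was higher, with 7.11 ± 6.43 in O and 0.05 ± 0.21 in NB. Of the mature neuron markers, Snap25 was higher and Map2 lower in O. No ependymal marker was measured. The part of other cell types in the differences was not tested.

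The same pair of gates was also sorted 6 days after an injection of LPC, a lipid that strips myelin, as OL (22 cells) and NBL (27 cells), which share no cell with O and NB. OL came from the Tomato strain of O, and NBL from the GFP strain of NB. In that pair 441 of 3422 genes (12.9%) were higher in OL than in NBL by at least 2, and 424 (12.4%) were lower. Of the 422 genes higher in O, 140 (33.2%) were also higher in OL and 20 (4.74%) were lower. Of the 462 genes lower in O, 26.6% were also lower in OL and 15 (3.25%) were higher. The correlation of both differences across the 3422 genes was 0.43 (Pearson) and 0.40 (Spearman), where genes are not independent replicates.

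Among the leading genes, all 4 non-overlapping genes, and 10 of the 12 leading genes on the O side, were again higher in OL by at least 2. The exceptions were Dapk1 (0.60) and Klhl7 (1.97). Psmd6 differed by 3.33 in the lesion pair, against 10.56 in the healthy pair. It was present in 4 of 22 OL cells and 0 of 27 NBL cells, against 29 of 29 O cells and 0 of 35 NB cells. On the NB side 8 of 12 were again lower, and Gapdh and Eif4g2 were higher in OL. Mbp differed by 12.35 between OL (12.47 ± 4.79) and NBL (0.13 ± 0.53), against 2.94 between O and NB. Sp8 differed by -0.50 and Map2 by -0.43 in the lesion pair, against -6.70 and -6.03 in the healthy pair. Ccnd2 was alike, with -7.69 in the lesion pair and -7.78 in the healthy pair. Differences between the pairs were not tested.

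**Figure D4:**
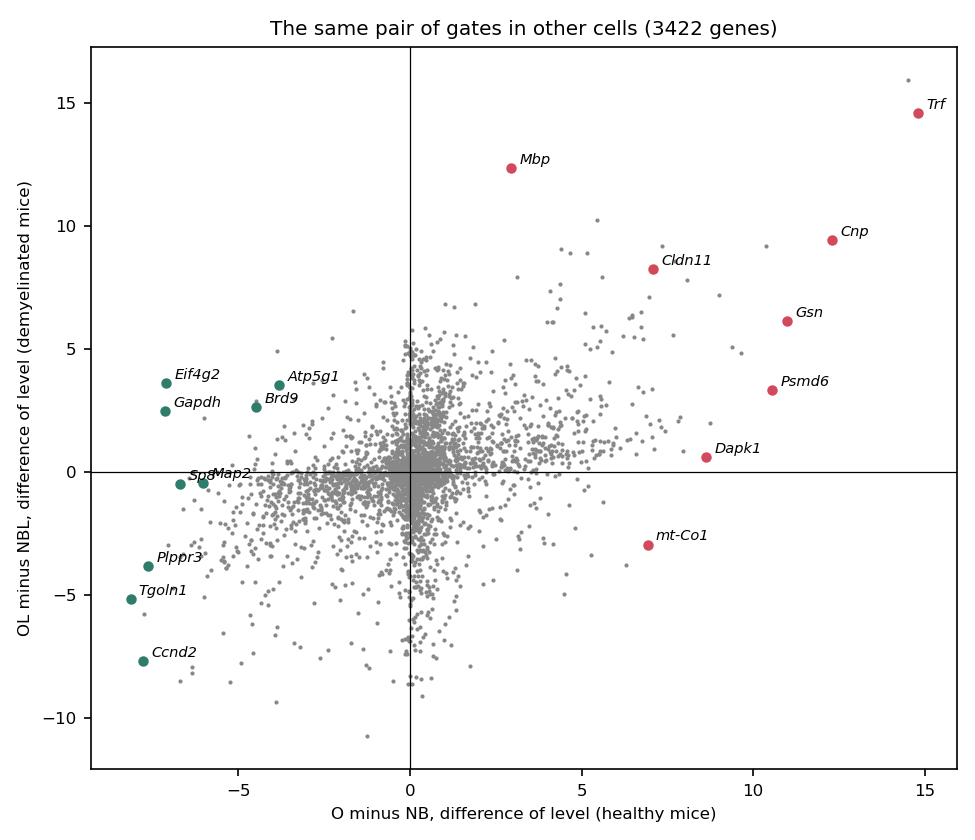
Difference of level, O minus NB (x axis) and OL minus NBL (y axis), log2(value + 1) scale, for each of 3422 genes, with named genes coloured by their sign on the x axis. Trf and Cnp lie far out on both axes, whereas Gapdh, Eif4g2 and mt-Co1 lie in quadrants of opposite sign.

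Within each population, runs of cell numbers carried genes of their own. In O, O-A cells stood out for Npc2, a cholesterol carrier of lysosomes, with a run mean of 10.8 and at most 1.73 in the other O runs. O-B cells stood out for Sparcl1, a matrix protein of glia (14.1 and at most 5.55), and for Atp1b2, a subunit of the sodium pump (10.9 and at most 2.09). O-C cells stood out for Srsf5, a splicing factor (11.2 and at most 2.81). The gaps were widest in the 6 early-numbered NB cells, the smallest NB run. These cells stood out for Syngr1, a synaptic vesicle protein (13.2 and 0 in the other NB runs), and for Rdx, the membrane-cytoskeleton linker radixin (16.2 and at most 3.98). NB-A cells stood out for Pea15a (9.90 and at most 2.38), NB-B cells for Sp4 (10.1 and at most 3.52), and NB-C cells for Ahsa1 (13.4 and at most 3.02) and Lrp8 (14.2 and at most 4.51). No mouse, plate or day is given for these runs, and their part in the differences between O and NB was not tested. When runs were weighted equally, every named gene that differed by at least 2 kept its direction, and 98.5% of them stayed at or above 2.

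A set of NB genes ran in parallel from cell to cell. With Klhdc1, a kelch-domain protein, 21 genes correlated at 0.85 or more across the 37 NB cells (median 0.92), among them Map4k3, Tgoln1, Copb1, Gabarapl1 and Bag4. In the 27 NBL cells 16 of the 21 again reached 0.85 (median 0.94). Across the 29 O cells none did (median 0.28), but 18 of the 21 had a level under 1 there, so the populations are not compared in this respect. Nor did any across the 40 OligNBL cells, from demyelinated mice of both strains crossed (median 0.36), where 13 had a level under 1. Of the 22 genes, 19 were lower in O by at least 2. Arpc5, an actin-branching subunit, was higher, with 9.64 ± 3.99 in O and 6.17 ± 4.39 in NB. Of 105462 distinct 31-base stretches in transcripts of these 22 genes, 57 occurred in more than 1 of them. Tgoln1 and Map4k3 are 2 of the 12 leading genes on the NB side, so those leading places share one pattern over cells. Copb1 and Gabarapl1 are counted in the vesicle list and Bag4 in the chaperone list. This set was chosen after its values were seen.

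**Figure D5:**
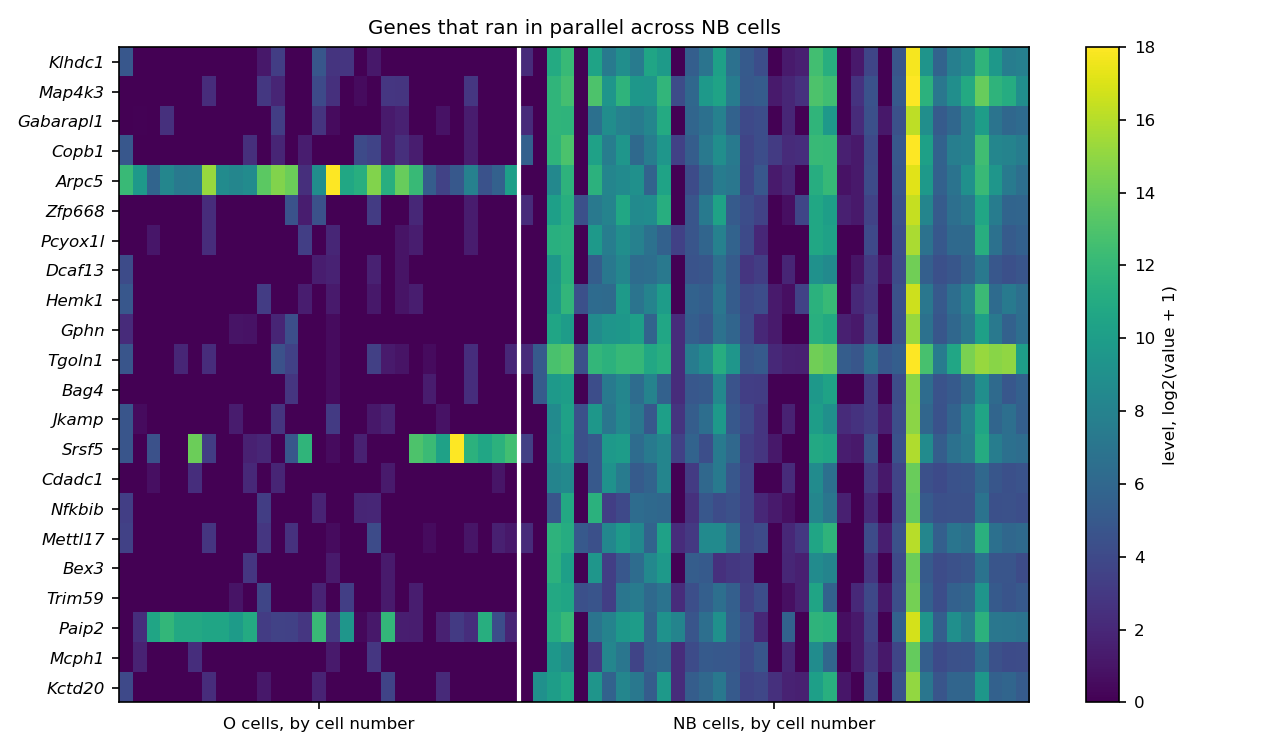
Level, log2(value + 1), of Klhdc1 and the 21 genes that correlated with it at 0.85 or more across NB cells (rows), in each O cell (left of the white line) and NB cell (right), ordered by cell number. NB columns are bright or dark over nearly all rows at once, and in O cells Arpc5, Srsf5 and Paip2 stand apart from the other rows.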

How the data were processed

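Cells were sorted on an Influx sorter into 96-well plates with a viability dye and their mRNA was measured by SMART-Seq2, per the labels. The submitters' processing notes name kallisto, limma and GRCm38, and give no versions. The deposited table of 3422 genes is named estimated counts, but its values behave as a normalized signal made by the authors: the 8 highest values were equal in every cell (relative tolerance 1e-06), as after quantile normalization. Depth therefore cannot be read from them, and precision is limited by the number of cells. How genes were selected is not stated in those sources.

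Levels were means of log2(value + 1). Members and lists were chosen with earlier results of these data known. Symbols wrongly matched by a list's pattern were removed after values were seen. Named genes were all measured cell type markers and reporters, the 12 leading genes each way (difference in presence of at least 60 points), up to 6 members per list with the largest differences, all members of lists of up to 8, and non-overlapping genes. Other members named from a list, the genes of single number runs, the Klhdc1 set, Manf, Ddit3, Canx, Pdia3 and Xbp1 were added after values were seen. List medians in the report cover all measured members, whereas the plan had set a minimum mean of 5 (cells scaled to a total of 1000000). Medians with that minimum are given where the sign differs and for some other lists whose size moved. Locations are from GENCODE vM21 on GRCm38. Promoters were matched by symbol for 2497 of 3422 genes. Single genes that the naming rule takes in are not reported here, although counts and list values include them. No doublet caller was run, and levels use every cell. Only the difference of levels was tested on simulated data, in which each gene's values were shuffled over cells and a known shift was added to some genes. That shuffle removes the likeness of neighbouring cell numbers, and the other steps were not simulated. Tools were numpy 2.4.6, scipy 1.17.1, pandas 2.3.3 and matplotlib 3.10.9 in Python 3.11.15. Alternatives covered the weighting of runs, cells used, the pseudocount, the median, the size called, the filter on low values and the definition of presence.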

Additional observations from a re-analysis of the deposited data

Results flagged for a closer look

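For 6 named genes the difference passed 2 in both pairs of gates with opposite signs, whereas 77 named genes passed it with the same sign. Over all genes the counts were 35 and 263. The difference between the pairs was not tested, and cells of 1 population share number runs. Eif4g2 differed by 3.60 between OL and NBL and by -7.10 between O and NB. Gapdh differed by 2.46 in the lesion pair and by -7.13 in the healthy pair. For Atp5g1 the values were 3.53 and -3.81, and for Brd9, a bromodomain subunit of SWI/SNF complexes, 2.62 and -4.48, lesion pair first. mt-Co1 went the other way, by -2.95 in the lesion pair and 6.92 in the healthy pair, as did Arpc5, by -2.20 and 3.47.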

How the results depend on the processing

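Counts of genes past the threshold moved with the scale and less with the cells used. With a pseudocount of 10, 254 genes were higher in O and 242 lower, and with the median over cells 273 were higher and 298 lower, against 422 and 462. At a difference of at least 1 they were 665 and 707. Without the early-numbered run, which holds 2 O cells, all run means were higher in O for 752 genes and lower for 609, against 336 and 365. Weighting runs equally, leaving out cells numbered 21 or lower, keeping cells with at least 1000 genes and leaving out NB cells under 500 genes (chosen after seeing the data) moved neither count past 1.5 times. Requiring a mean of at least 5 in O or NB, for the value scaled to a column total of 1000000, turned the sign of the median of 7 of 22 lists. It moved 12 more by over 1.5 times, and 3 stayed within that. Ribosomal proteins had -1.34 with the minimum and -0.20 without, splicing genes -0.98 and -0.08, and chaperones -2.27 and -0.66. With the median over cells in place of the mean, 17 of the 22 medians with that minimum moved by over 1.5 times. Over members past that minimum and over every measured member, the medians were -1.27 and 0.057 for translation factors, -0.71 and 0.25 for axon guidance and adhesion, -0.55 and 0.03 for chromatin, -0.47 and 0.11 for lipid synthesis, -0.44 and 0.05 for ion channels, -0.38 and 0.08 for vesicle traffic, and -0.06 and 0.18 for S phase. The median with that minimum also changed sign for GABA and neuronal RNA-binding genes (0.14, against -0.01 with a pseudocount of 10 and -0.52 with a minimum of 50), for ion channels (0.10 among cells with at least 1000 genes), for axon guidance and adhesion (0.53 with a minimum of 50) and for S phase (0.27 with runs weighted equally). Of the named genes past 2, all kept their direction with a pseudocount of 10 and 96.4% with the median, and with a pseudocount of 10 84.7% stayed past 2. Pax6 differed by 0.19 among cells with at least 1000 genes, against -1.17 in all cells. The cause was not tested. No paired analysis was possible because the results come from no test and numbers do not pair cells of O with cells of NB.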
